A study of Arabidopsis thaliana with 16 samples.

Results

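The outer surface of a plant is made by the epidermis, a layer whose identity is set by transcription factors of the HD-ZIP IV family and whose outer wall carries the cuticle, a sheet of cutin polyester and wax. Wax is made from very-long-chain fatty acids, which an elongase complex in the endoplasmic reticulum extends and an alkane-forming complex or an alcohol branch then converts, and exporters and lipid transfer proteins carry the products to the surface. HD-ZIP IV proteins bind an 8-base element, the L1 box, in promoters of genes that are active in the epidermis. The genes described here are 9 loci of this system, of 40414 loci and de novo transcripts with a row in the count table. They were named by locus, a rule that uses no measured value although earlier results of these data were known when it was set, and the counts of all annotated transcripts of each locus (19 in all) were summed. They comprise the identity factors ATML1 and PDF2, their target PDF1, the alkane-forming pair CER1 and CER3, the elongase enzymes CER6 and KCS1, the lipid transfer protein LTP1 and the regulator WIN1.

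Total RNA was depleted of rRNA and sequenced in 16 libraries of Arabidopsis thaliana, 2 for each of 8 groups. The wild-type accession Col-0 was sampled as dry seed (DS) and after stratification in cold, dark water for 24 h, named S24, or for 72 h, named S72. Samples L6, L26 and L57 then had 6, 26 or 57 h of continuous light in shaken liquid medium. Seedlings of hen2-4 and rrp4-2, lines mutated in the nuclear exosome helicase HEN2 and the exosome core subunit RRP4 in the Col-0 background, were sampled at the stage of L57. Each library holds RNA of whole seeds or seedlings, so fewer epidermal cells and less RNA per epidermal cell cannot be told apart. Whether the paired libraries of a group derive from separate cultures is not stated in the labels. The p-values therefore speak of library-to-library spread alone, and this may be technical.

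Library totals were 237727756 to 266418636 counts in the 8 libraries of S24, S72, hen2-4 and rrp4-2 and 75618077 to 112510105 counts in the 8 others, so comparisons between these sets also compare depths. Chloroplast genes took 47.5% and 49.7% of counts in rrp4-2, 47.0% and 46.6% in hen2-4 and 41.2% and 43.4% in L57, but 3.99% to 11.3% in the earlier stages. Nuclear rRNA took 12.3% of DS replicate 1 and at most 1.33% of any other library. Levels are therefore given as CPM, counts per 1000000 of a library total rescaled by edgeR's TMM factors (0.67 to 1.44), and fold changes and adjusted p-values come from edgeR's quasi-likelihood test with Benjamini-Hochberg adjustment over all 28824 genes tested, with a call at 0.05. HEN2 itself had 80.9 and 78.2 CPM in the libraries labelled hen2-4, against 17.8 and 17.8 CPM in L57. This is 4.47-fold higher (adjusted p = 8.2e-09), the opposite of a loss of transcript. The sources used here do not say which part of HEN2 the allele alters, so this level neither checks nor contradicts the label. These samples are therefore called the libraries labelled hen2-4, and the direction of every difference from them rests on that label. RRP4 had 7.72 and 5.63 CPM in rrp4-2, against 6.28 and 5.59 CPM in L57 (adjusted p = 0.359), and the sources used here do not say which part of the gene the allele alters, so its level checks nothing.

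The identity factors were present at every stage, dry seed included. ATML1 (AT4G21750, chr4:11555039-11560771, plus strand, TAIR10.1), which with PDF2 is required to make an epidermis, had 88.4 and 91.1 CPM in DS, 65.3 and 66.5 CPM in S24 and 48.8 and 45.9 CPM in S72. It then had 92.9 and 92.3 CPM in L6, 94.8 and 95.7 CPM in L26 and 93.9 and 90.9 CPM in L57. In CPM the low point was thus stratified seed, and DS, L6, L26 and L57 lay within 88.4 to 95.7 CPM. ATML1 was lower in S24 than in DS (log2 fold change -0.45 ± 0.07 (SE), n = 2 libraries per group here and below; adjusted p = 0.000176), lower again in S72 than in S24 (-0.48 ± 0.07, adjusted p = 0.000112) and higher in L6 than in S72 (0.97 ± 0.07, adjusted p = 6.16e-08). L57 and L26 differed by -0.04 ± 0.07 (adjusted p = 0.642), and here the scale decides the direction. With DESeq2 size factors the same difference was 0.31 (adjusted p = 0.00247), while the deposited TPM were 31.1 and 26.8 in L57, against 51.8 and 51.9 in L26. In TPM the dry seed was also lower than early light, at 21.7 and 22.9 in DS. Dry seed was lower than S24 too (26.6 and 23.8 TPM), while S72 had 18.2 and 16.8 TPM. The direction from DS to S24 thus depends on the scale as well, although the log2 fold change of counts stayed between -0.59 and -0.21 over 11 alternatives.

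PDF2 (AT4G04890, chr4:2476390-2482447, minus strand), the close paralog of ATML1, was highest in early light. It had 60.9 and 62.3 CPM in DS, 79.4 and 77.6 CPM in S24 and 71.8 and 73.2 CPM in S72. It reached 181 and 175 CPM in L6 and 176 and 177 CPM in L26, and had 84.6 and 75.6 CPM in L57. L6 and L26 overlapped, and both stood above every other stage. PDF2 was 2.45-fold higher in L6 than in S72 (log2 fold change 1.29 ± 0.06, adjusted p = 6.86e-10) and lower in L57 than in L26 (-1.14 ± 0.06, adjusted p = 2.87e-09).

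**Figure D1:**
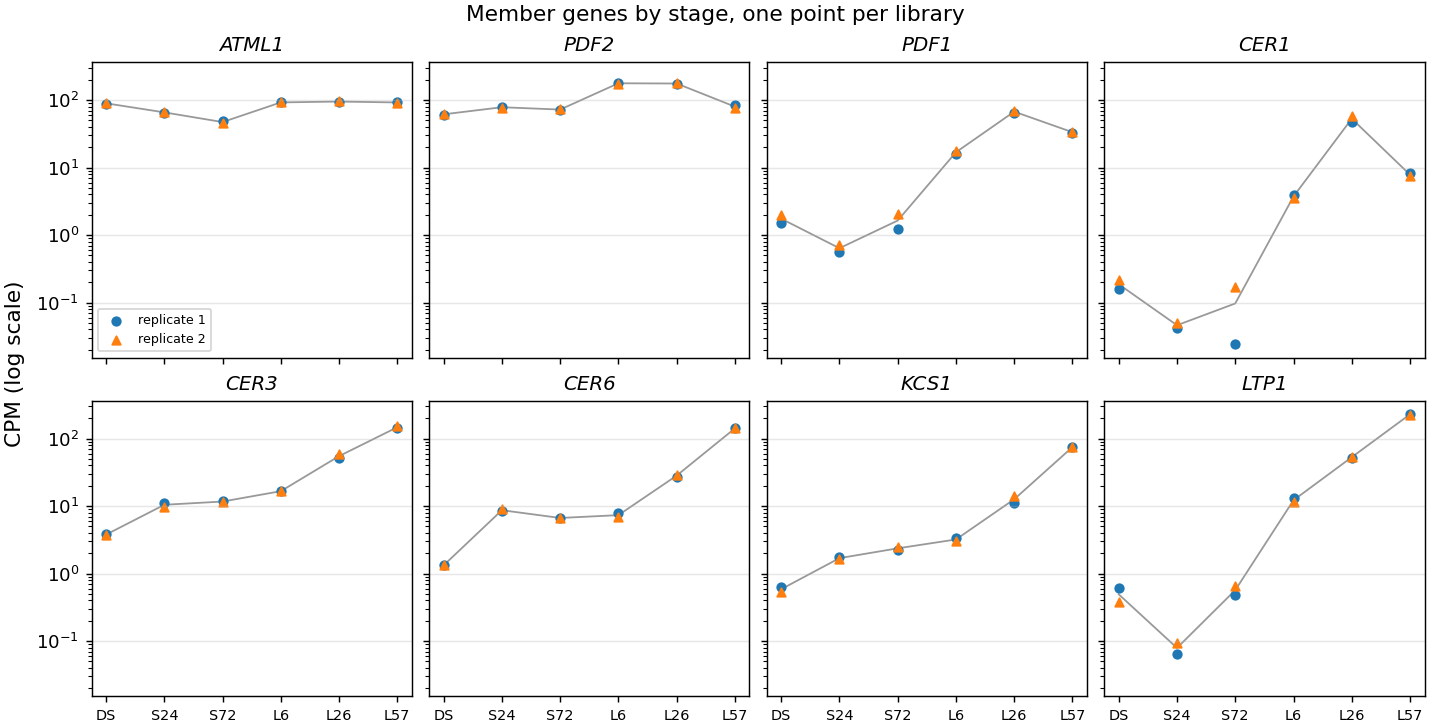
CPM on a logarithmic axis of the 8 members with enough counts to test, by stage from DS to L57, with 1 circle and 1 triangle per library and a line through the mean of each stage. ATML1 stays between 45.9 and 95.7 CPM, PDF1 and CER1 are highest at L26, and CER3, CER6, KCS1 and LTP1 are highest at L57.

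The annotated transcripts of PDF2 changed places between seed and seedling. The transcripts AT4G04890.1 and AT4G04890.2 share 11 of 12 exons and differ in the first exon, so that the start of the second lies 857 bases downstream, within the first intron of the first. The upstream transcript AT4G04890.1 made up 11.8% and 7.21% of the estimated counts of PDF2 in DS. It made up 12.4% and 11.2% in S24 and 23.2% and 22.5% in S72. Its share was 42.4% and 45.8% in L6, 71.5% and 76.6% in L26 and 87.8% and 81.7% in L57. From S24 to L57 the replicates of each stage did not overlap those of the next. The shares came from StringTie's division of reads among overlapping transcripts, and no test was run on them. The 100 bases before each annotated start are printed here, 5′ to 3′ on the gene's strand and read from the TAIR10.1 genome at RefSeq starts, because the difference between the transcripts is one of position. Capitals mark TATAAA, the core of a TATA box, which was searched on the gene strand.
AT4G04890.1, chr4:2482448-2482547, minus strand: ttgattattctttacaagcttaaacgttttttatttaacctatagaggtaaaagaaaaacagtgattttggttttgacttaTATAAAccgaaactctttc
AT4G04890.2, chr4:2481591-2481690, minus strand: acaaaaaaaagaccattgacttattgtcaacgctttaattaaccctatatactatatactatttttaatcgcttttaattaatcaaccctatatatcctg
The upstream window holds TATAAA from 19 bases before the start, and the downstream window does not hold these letters. Among 27443 protein-coding genes, 17.9% hold TATAAA in the 100 bases before their annotated start. These letters are not evidence of a working TATA box, and their absence says only that they are not in that window.

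In ATML1 the shares of annotated transcripts also moved from S72 onwards, but these transcripts differ in more than their start. AT4G21750.2 and AT4G21750.3 share 8 of 11 exons, and AT4G21750.3 starts inside the 487-base first exon of AT4G21750.2. Despite its later start AT4G21750.3 holds 3972 exonic bases, against 3351 in AT4G21750.2. Their shares therefore do not compare starts alone. AT4G21750.2, which begins 464 bases upstream of AT4G21750.3, made up 41.3% and 31.9% of ATML1 counts in S72, 77.4% and 74.7% in L6, 91.9% and 90.8% in L26 and 95.7% and 91.2% in L57. The share of AT4G21750.3 was 55.6% and 64.6% in S72, 18.5% and 18.0% in L6, 4.98% and 6.59% in L26 and 2.84% and 4.55% in L57. In DS the replicates disagreed, with 24.5% and 54.6% for AT4G21750.3. For CER1, which has 5 annotated transcripts, the division could not be read at all. AT1G02205.2 took 85.5% of CER1 counts in L26 replicate 1 and 2.34% in L26 replicate 2, so CER1 is described only as a whole locus. CER6 was steady, with AT1G68530.1 at 86.9% to 94.2% from S24 to L57.

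**Figure D2:**
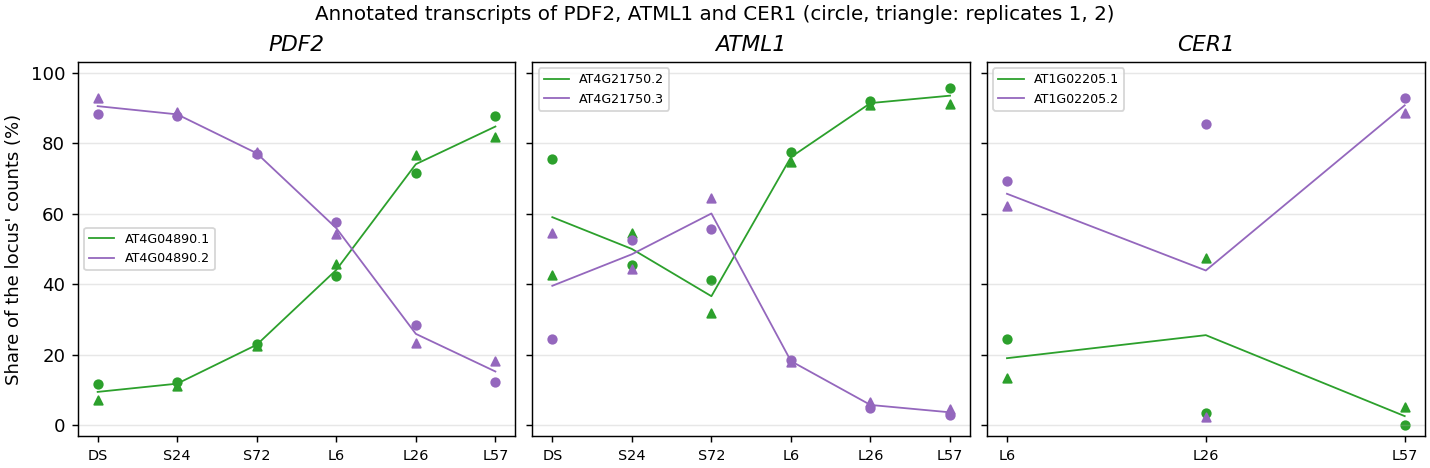
Share in percent of the estimated counts of PDF2, ATML1 and CER1 assigned to the named transcripts, by stage, with a circle for replicate 1 and a triangle for replicate 2. The share of AT4G04890.1 climbs to 87.8% and 81.7% in L57, whereas the replicates of CER1, drawn from L6 on, lie far apart in L26, and lines join the means.

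PDF1 (AT2G42840, chr2:17826071-17827648, minus strand), a proline-rich protein of the epidermal cell wall, is a target of ATML1 and PDF2 through its L1 box. It had 1.52 and 1.99 CPM in DS, only 0.558 and 0.722 CPM in S24 and 1.24 and 2.05 CPM in S72. It had 15.98 and 17.8 CPM in L6, 65.3 and 69.8 CPM in L26 and 32.9 and 34.0 CPM in L57. PDF1 was therefore highest in L26, with no overlap between L6, L26 and L57. It was 10.3-fold higher in L6 than in S72 (log2 fold change 3.36 ± 0.18, adjusted p = 1.52e-09) and lower in L57 than in L26 (-1.01 ± 0.16, adjusted p = 6.27e-05). Between S72 and DS its replicates overlapped.

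The L1 box was searched as TAAATGCA and TAAATGTA, on both strands, from 250 bases before to 50 bases after the annotated start of each member. PDF1 was the only member of the 9 with a match. The match is printed below in capitals within 30 bases, since it is the element through which PDF1 is linked to the identity factors.
PDF1 L1 box, chr2:17827600-17827629, minus strand: atgggatagtgTAAATGCAcctgcaacaca
It lies on the gene strand, at bases 31 to 38 after the annotated start and thus inside the first exon as RefSeq draws it. Of 27443 protein-coding promoters of the same length, 5.10% held either form and 1.81% held TAAATGCA. Of 71 further epidermis and cuticle genes described below, 14 (19.7%) held either form. A match is a string of letters and not evidence of binding, and the absence of one in the other 8 members says only that these letters are not in this window.

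CER1 and CER3 make alkanes together, and their transcripts separated after L26. CER1 (AT1G02205, chr1:418416-422579, plus strand) was nearly silent in seed, with 8 and 18 counts in DS, 11 and 13 counts in S24 and 6 and 44 counts in S72. It had 3.91 and 3.58 CPM in L6, 47.9 and 58.2 CPM in L26 and 8.22 and 7.49 CPM in L57. CER3 (AT5G57800, chr5:23420184-23424117, plus strand) had 3.86 and 3.69 CPM in DS, 11.1 and 9.81 CPM in S24 and 11.98 and 11.4 CPM in S72. It went on to 16.5 and 16.8 CPM in L6, 51.5 and 58.4 CPM in L26 and 144 and 151 CPM in L57. CER1 thus stood highest in L26 and CER3 in L57, with no overlap between these stages in either gene.

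The step from L26 to L57 took the partners in opposite directions. CER1 was 6.75-fold lower in L57 than in L26 (log2 fold change -2.76 ± 0.24, adjusted p = 2.27e-07), and CER3 was 2.68-fold higher (1.42 ± 0.08, adjusted p = 1.82e-09). Before that, CER1 was 37.7-fold higher in L6 than in S72 (5.24 ± 0.34, adjusted p = 1.22e-08; 4.45 without S72 replicate 1 and 7.22 without S72 replicate 2) and 14.2-fold higher in L26 than in L6 (3.82 ± 0.25, adjusted p = 2.86e-08). CER3 changed by smaller steps, of 1.42-fold from S72 to L6 (adjusted p = 4.6e-05) and 3.31-fold from L6 to L26 (adjusted p = 1.17e-09). To compare the pair with each other, the deposited TPM, which account for transcript length, were divided. The ratio of CER3 to CER1 was 4.23 and 4.73 in L6, 1.11 and 0.977 in L26 and 18.2 and 20.8 in L57. The transcripts were thus near parity only in L26 among the stages in light, and the seed ratios rest on few CER1 counts and are not given.

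**Figure D3:**
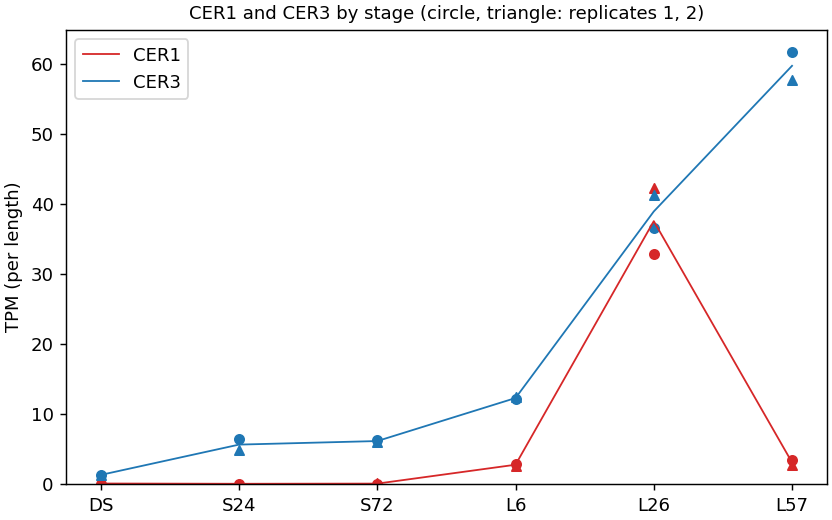
TPM, a per-length level, of CER1 and CER3 by stage from DS to L57, with a circle for replicate 1, a triangle for replicate 2 and a line through the means. The genes meet at L26, with 32.9 and 42.3 TPM for CER1 and 36.6 and 41.3 TPM for CER3, and at L57 CER1 has 3.39 and 2.77 TPM while CER3 has 61.8 and 57.8 TPM.

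Both elongase members were higher in S24 than in DS, while of 13 tested acyl elongation genes of the wider list described further on 3 were higher (28.9% of all genes tested), 3 lower (24.8% of all) and 7 passed in neither direction. CER6 (AT1G68530, chr1:25712414-25715024, minus strand), the ketoacyl-CoA synthase that makes the longest wax precursors, had 1.32 and 1.32 CPM in DS, 8.43 and 8.93 CPM in S24 and 6.73 and 6.60 CPM in S72. It had 7.86 and 6.81 CPM in L6, 27.2 and 29.3 CPM in L26 and 141 and 142 CPM in L57. CER6 was 6.56-fold higher in S24 than in DS (log2 fold change 2.71 ± 0.10, adjusted p = 1.07e-10), lay between 6.60 and 8.93 CPM until L6, and was 5.01-fold higher in L57 than in L26 (2.33 ± 0.07, adjusted p = 2.55e-11). KCS1 (AT1G01120, chr1:57164-59215, minus strand), another enzyme of that family, had 0.631 and 0.542 CPM in DS, 1.75 and 1.63 CPM in S24 and 2.26 and 2.46 CPM in S72. It had 3.39 and 3.01 CPM in L6, 11.1 and 14.2 CPM in L26 and 74.2 and 75.4 CPM in L57. No stage of KCS1 overlapped the next. It was 2.93-fold higher in S24 than in DS (1.55 ± 0.22, adjusted p = 3.95e-05) and 5.93-fold higher in L57 than in L26 (2.57 ± 0.13, adjusted p = 1.04e-09).

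LTP1 (AT2G38540, chr2:16130290-16131240, plus strand), a small secreted protein that binds lipids outside the epidermal cell, spanned a wide range. It had 0.611 and 0.373 CPM in DS, 0.065 and 0.0931 CPM in S24 and 0.486 and 0.649 CPM in S72. It had 13.0 and 11.4 CPM in L6, 52.1 and 53.8 CPM in L26 and 232 and 226 CPM in L57. LTP1 was 5.88-fold lower in S24 than in DS (log2 fold change -2.56 ± 0.31, adjusted p = 1.08e-05) and 489-fold higher in L57 than in DS (8.93 ± 0.18, adjusted p = 5.43e-14). The seed side of these folds rests on few counts, 31 and 31 in DS and 17 and 24 in S24. LTP2 lies next to LTP1 and resembles it in sequence, so reads shared by the pair may have been placed on either.

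WIN1 (AT1G15360, chr1:5283268-5284736, plus strand), an AP2/ERF factor known to switch on cutin and wax genes when overexpressed, had next to no counts. It had 5 counts in S24 replicate 1, 2 counts in L57 replicate 2 and 0 counts in the 14 other libraries. A count of 0 allows up to 3 counts, which is 0.0115 to 0.0591 CPM depending on the library, so only S24 replicate 1 lay above that limit. WIN1 did not pass the filter on low counts, has no row among the deposited TPM, and enters no comparison.

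Per length, the order of the members was rebuilt between L26 and L57. In L26 LTP1 led with 115 and 118 TPM, followed by PDF2 with 99.5 and 99.2 TPM and PDF1 with 86.0 and 91.3 TPM. ATML1 had 51.8 and 51.9 TPM, CER3 and CER1 overlapped, CER6 had 22.2 and 23.8 TPM and KCS1 was last with 9.92 and 12.6 TPM. In L57 LTP1 had 310 and 269 TPM, CER6 70.1 and 62.5 TPM, CER3 61.8 and 57.8 TPM and KCS1 40.3 and 36.4 TPM. ATML1, PDF2 and PDF1 overlapped between 22.9 and 31.1 TPM, and CER1 was last.

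Stage by stage, the first step split the members evenly. In S24 against DS, 4 of the 8 tested members were higher (CER6, CER3, KCS1 and PDF2), where 28.9% of all genes were called higher, and 4 were lower (LTP1, CER1, PDF1 and ATML1), where 24.8% were called lower. The call on CER1 (log2 fold change -2.05 ± 0.72, adjusted p = 0.0282) rests on 8 to 18 counts per library and passed in 6 of 11 alternatives, and it was lost without DS replicate 1 (adjusted p = 0.0509), DS replicate 2 (0.272) or S24 replicate 1 (0.0784). In S72 against S24, LTP1 (7.15-fold), PDF1 (2.57-fold) and KCS1 (1.40-fold) were higher and ATML1 and CER6 were lower, so that 5 of 8 were called where 53.8% of all genes were called in either direction. The call on KCS1 was lost without S72 replicate 2 (adjusted p = 0.0619) and with organellar genes left out (0.141). CER1 in S72 had 6 and 44 counts, and its difference from S24 (log2 fold change 1.08 ± 0.61, adjusted p = 0.147) was 1.88 without S72 replicate 1 (adjusted p = 0.00037) and -0.90 without S72 replicate 2 (adjusted p = 0.218).

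The step from S72 to L6 changed light, temperature, medium and time together, which cannot be told apart. In L6 against S72, 7 of 8 were higher where 33.8% of all genes were called higher, and 0 were lower where 31.0% were. CER6 was the exception at 0.14 ± 0.07 (adjusted p = 0.119), and it was 0.24 without L6 replicate 2. Among refits that kept both replicates of each group, CER6 passed at 0.22 with DESeq2 size factors (adjusted p = 0.0115). It also passed with organellar genes and rRNA left out (0.0114) and with the DESeq2 Wald test (0.00559). The call on KCS1 (adjusted p = 0.0142) was lost without S72 replicate 1 (0.0838) or L6 replicate 1 (0.122). In L26 against L6, 6 of 8 were higher where 30.2% of all genes were called, between 3.31-fold for CER3 and 14.2-fold for CER1, and 0 were lower where 28.1% were. ATML1 and PDF2 differed by 0.04 ± 0.07 and -0.01 ± 0.06 on the log2 scale between L26 and L6. In L57 against L26, CER3, CER6, KCS1 and LTP1 were higher, 4 of 8 where 29.7% of all genes were called, and CER1, PDF1 and PDF2 were lower, 3 of 8 where 35.5% were. Of all calls in that comparison 45.6% were higher, and 58.8% with DESeq2 size factors, so the balance over all genes moved with the scale while the calls on these 7 members did not. From end to end, in L57 against DS, 7 of 8 were higher where 40.5% of all genes were called, and 0 were lower where 37.7% were. The median log2 fold change of the 8 was 5.31, beside 0 for all genes tested. The smallest called change, PDF2 at 0.38 ± 0.06 (adjusted p = 9.71e-05), was lost without DS replicate 1 (adjusted p = 0.0546). ATML1 did not pass (0.04 ± 0.07, adjusted p = 0.616), but it did in 4 of 11 alternatives, at 0.26 with DESeq2 size factors (adjusted p = 0.00541), and the range over the 11 was -0.14 to 0.26.

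A wider list of 71 genes places the members among their pathway, of which 65 could be tested. In L57 against DS 51 of these were higher, where 40.5% of all genes tested were, and 7 were lower, where 37.7% of all were, and the counts by role that follow have the same shares behind them. The list had a median log2 fold change of 3.33 (3.30 over 62 genes once those without a count in one group were set at their bound and those under the floor in both were left out). All 13 genes of acyl elongation, all 6 of lipid transfer and export and all 8 of epidermal cell types were higher. LACS2, an acyl-CoA synthetase of cutin synthesis, had 68.3 and 61.6 CPM in L57, against 0.0986 and 0 CPM in DS. KCS20, a relative of CER6 and KCS1, had 44.9 and 45.3 CPM in L57, against 0 and 0.0843 CPM in DS. CER2, which works with CER6 on the longest chains, had 67.0 and 66.3 CPM in L57, against 0.335 and 0.181 CPM in DS, a log2 fold change of 8.11 ± 0.21 (adjusted p = 4.24e-13).

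Of 10 tested genes of cutin synthesis 6 were higher and 2 lower in L57 than in DS. The acyltransferase GPAT4 had 47.3 and 46.4 CPM in L57 and no count in DS, and was at least 785-fold higher against a floor of 3 counts per library. GPAT8, its partner, had 46.2 and 50.7 CPM in L57, against 0.0591 and 0.0482 CPM in DS, and the hydrolase-like BDG1 had 34.2 and 34.2 CPM, against 0 and 0.0361 CPM. Both groups of each gene were far apart. Among exporters, ABCG32 had 176 and 171 CPM in L57, against 1.71 and 1.98 CPM in DS, and ABCG11 had 148 and 154 CPM, against 4.02 and 3.49 CPM. LTPG2, a membrane-anchored lipid transfer protein, had 72.6 and 73.5 CPM in L57, against 0.414 and 0.446 CPM in DS.

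Of 8 tested regulators 5 were higher and 3 lower in L57 than in DS. MYB16, a MIXTA-like activator of cuticle genes, had 19.7 and 18.1 CPM in L57 and no count in DS, at least 306-fold higher. CER9, a ubiquitin ligase of the endoplasmic reticulum that limits cuticle lipids, fell to 71.3 and 77.9 CPM in L57, against 605 and 639 CPM in DS (log2 fold change -3.06 ± 0.08, adjusted p = 4.4e-13). DEWAX, a repressor of wax genes, had 37.5 and 44.0 CPM in L57, against 137 and 141 CPM in DS (-1.77 ± 0.16, adjusted p = 1.82e-07). SHN2, a relative of WIN1, had 4 counts in hen2-4 replicate 1, 4 and 2 in rrp4-2 and 0 elsewhere, and SHN3 had 0 counts in all 16 libraries, so neither was tested. Of 8 tested genes of epidermal signalling 5 were higher and 2 lower in L57 than in DS, the receptors being higher for GSO1 (5.18 ± 0.12), ACR4 (3.73 ± 0.12) and ALE2 (3.54 ± 0.08), each with an adjusted p of 4.11e-12 or less, and lower for GSO2 (-0.37 ± 0.16, adjusted p = 0.0438). Of 9 tested HD-ZIP IV relatives of ATML1 7 were called higher in L57 than in DS and 0 lower, with HDG2 at 0.90 ± 0.11, ANL2 at 0.67 ± 0.09 and HDG1 at 0.26 ± 0.05. HDG7, named here after its values were seen, was not called but had lower levels in L57. It had 3.10 and 7.38 CPM in L57, against 21.2 and 24.7 CPM in DS, and its S24 libraries were far apart, at 0.317 and 32.4 CPM. Among epidermal cell types, the root hair expansin EXPA7 had 18.9 and 17.2 CPM in L57 and no count in DS (at least 291-fold higher), and TMM of the stomatal lineage had 23.8 and 21.9 CPM, against 0.237 and 0.289 CPM.

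Of the 65 tested genes 19 had their highest stage mean in L26 and 27 in L57, while of the 8 members 3 did so in L26 and 4 in L57, and of all genes tested 15.2% and 26.8%. In L57 against L26 30 of the 65 were higher, where 29.7% of all genes were, and 20 were lower, where 35.5% were. They had a median log2 fold change of 0.15 beside -0.11 for all genes. CYP86A4 and DCR are named here after their values were seen. CYP86A4, a fatty acid hydroxylase of cutin synthesis, had 1.92 and 1.77 CPM in L57, against 22.0 and 22.7 CPM in L26 (log2 fold change -3.60 ± 0.20, adjusted p = 2.98e-09), while its relatives CYP86A2 and CYP86A8 had 123 and 128 CPM and 52.7 and 49.1 CPM in L57, against 28.9 and 28.0 CPM and 25.8 and 28.2 CPM in L26. DCR, an acyltransferase of cutin synthesis, had 7.66 and 7.42 CPM in L57, against 19.7 and 20.9 CPM in L26. Members of one enzyme family thus lay on both sides, as CER1 and CER3 did.

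**Figure D4:**
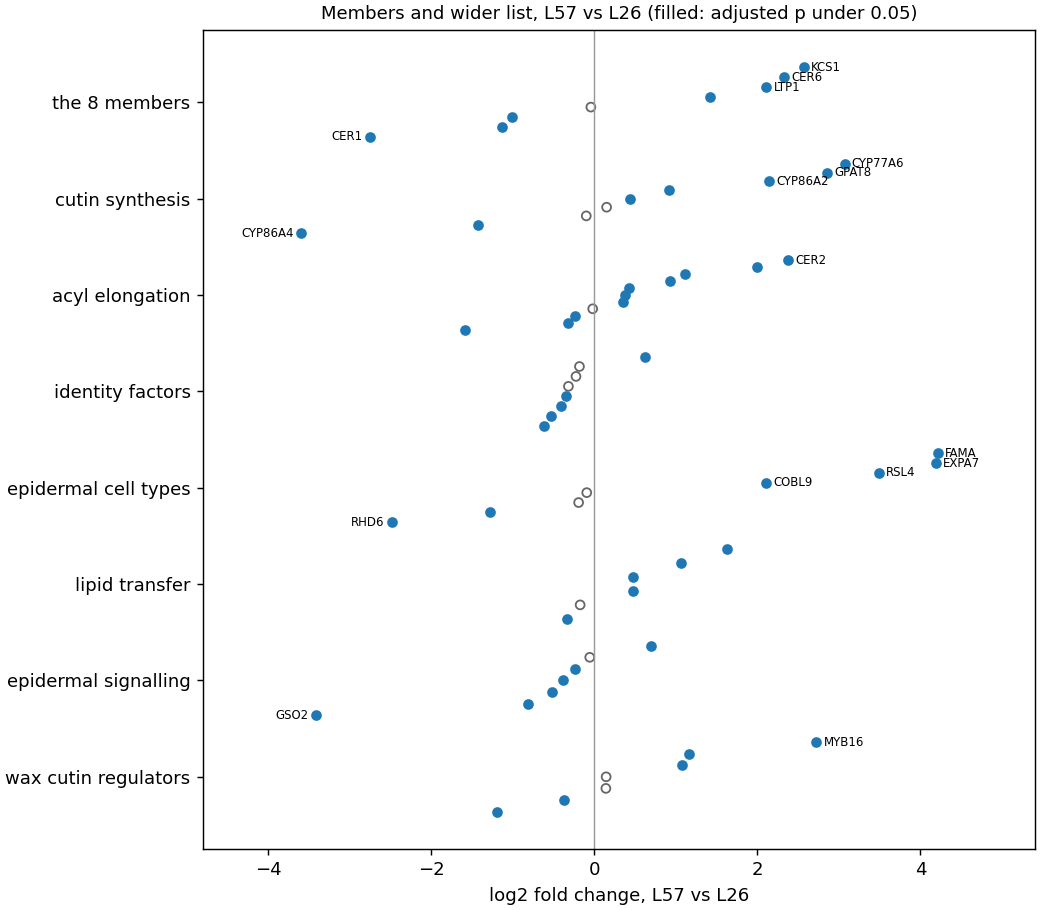
Log2 fold change in L57 against L26 of the 8 members and of 56 genes of the wider list with a mean of at least 1 CPM in L57 or L26 and at least 10 counts in each, by role. Filled points passed an adjusted p of 0.05, open points did not, and CER1 at -2.76 and CYP86A4 at -3.60 lie left of 0 while CER6 at 2.33 and KCS1 at 2.57 lie right of it.

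Markers of other cell types and of seed tissue moved over the same stages. The summed CPM of 4 mesophyll markers was 14.7 to 14.9 in DS, 166 to 173 in L6, 1040 to 1060 in L26 and 14267 to 17072 in L57. That of 3 endosperm and seed coat markers was 4816 to 7095 in DS, 521 to 686 in L6, 195 to 205 in L26 and 19.5 to 21.2 in L57, but the 3 genes did not move together. EPR1 made up nearly all of it in DS (4783 and 7063 CPM) and had 465 and 631 CPM in L6, 15.1 and 13.0 CPM in L26 and 0.494 and 0.60 CPM in L57. DELTA-VPE had 0.197 and 0.0602 CPM in DS, 28.6 and 27.8 CPM in L6, 189 and 181 CPM in L26 and 18.9 and 20.6 CPM in L57, and MFT had 32.4 and 31.9 CPM in DS and 0.118 and 0.0103 CPM in L57. The sum of 4 vascular markers was 8.998 to 9.34 in DS and 70.4 to 72.9 in L57, and that of 3 endodermis markers 5.63 to 6.03 in DS and 42.0 to 44.2 in L57, where CASP1 had no count in DS. Their part in the levels of the members was not tested.

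In the mutants, CER1 was the member that differed most from L57. It had 4.42 and 4.76 CPM in the libraries labelled hen2-4 and 2.79 and 2.44 CPM in rrp4-2, against 8.22 and 7.49 CPM in L57, and no libraries of the 3 groups overlapped. CER1 was 3.00-fold lower in rrp4-2 than in L57 (log2 fold change -1.59 ± 0.24, adjusted p = 0.000433), which passed in 10 of 10 alternatives. It was 1.71-fold lower in the libraries labelled hen2-4 (-0.77 ± 0.23, adjusted p = 0.0234), a call that was lost on leaving out L57 replicate 1 (adjusted p = 0.134), L57 replicate 2 (0.0659), hen2-4 replicate 1 (0.119) or hen2-4 replicate 2 (0.0785). Set directly against each other, rrp4-2 was lower than hen2-4 by -0.81 ± 0.23 (adjusted p = 0.0475), which passed in 3 of 10 alternatives. This call too was lost on leaving out any 1 of its libraries.

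CER3 was lower in both. It had 125 and 115 CPM in the libraries labelled hen2-4 and 124 and 125 CPM in rrp4-2, against 144 and 151 CPM in L57. The log2 fold changes were -0.29 ± 0.07 in hen2-4 (adjusted p = 0.00921) and -0.24 ± 0.07 in rrp4-2 (adjusted p = 0.0277). The call in hen2-4 was lost without L57 replicate 2 (adjusted p = 0.0918) or hen2-4 replicate 2 (0.0989), and that in rrp4-2 without any 1 of the 4 libraries (0.0684 to 0.198). In Arabidopsis the exosome subunit CER7 is known to keep CER3 transcripts up by limiting small RNAs against them. CER7, named here for that link after its values were seen, had 9.37 and 9.33 CPM in the libraries labelled hen2-4 and 10.1 and 8.89 CPM in rrp4-2, against 10.2 and 9.55 CPM in L57 (adjusted p = 0.457 and 0.638).

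KCS1 had 66.3 and 51.4 CPM in the libraries labelled hen2-4 and 69.1 and 65.1 CPM in rrp4-2, against 74.2 and 75.4 CPM in L57. Its change in hen2-4 (-0.35 ± 0.12, adjusted p = 0.0447) was lost without hen2-4 replicate 2 (0.409) or either L57 library (0.160 and 0.187). ATML1 had 116 and 102 CPM in the libraries labelled hen2-4 and 88.2 and 101 CPM in rrp4-2, against 93.9 and 90.9 CPM in L57. Its call in hen2-4 (0.24 ± 0.07, adjusted p = 0.0276) passed in 2 of 10 alternatives, whose adjusted p-values spanned 0.0157 to 0.363, and was lost without L57 replicate 1 (0.0816), L57 replicate 2 (0.148) or hen2-4 replicate 1 (0.235). CER6 had 156 and 147 CPM in the libraries labelled hen2-4 and 143 and 154 CPM in rrp4-2, against 141 and 142 CPM in L57, and passed in neither (adjusted p = 0.342 and 0.529). PDF1 had 29.3 and 31.3 CPM in the libraries labelled hen2-4 and 25.3 and 24.5 CPM in rrp4-2, against 32.9 and 34.0 CPM in L57. Its difference in rrp4-2 (-0.43 ± 0.16, adjusted p = 0.06) did not pass but did in 5 of 10 alternatives. LTP1 had 221 and 200 CPM in the libraries labelled hen2-4 and 185 and 196 CPM in rrp4-2, against 232 and 226 CPM in L57 (adjusted p = 0.466 and 0.0926). It passed as lower in 1 of 10 alternatives in hen2-4 and in 4 of 10 in rrp4-2. PDF2 passed in neither (adjusted p = 0.0896 and 0.122).

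**Figure D5:**
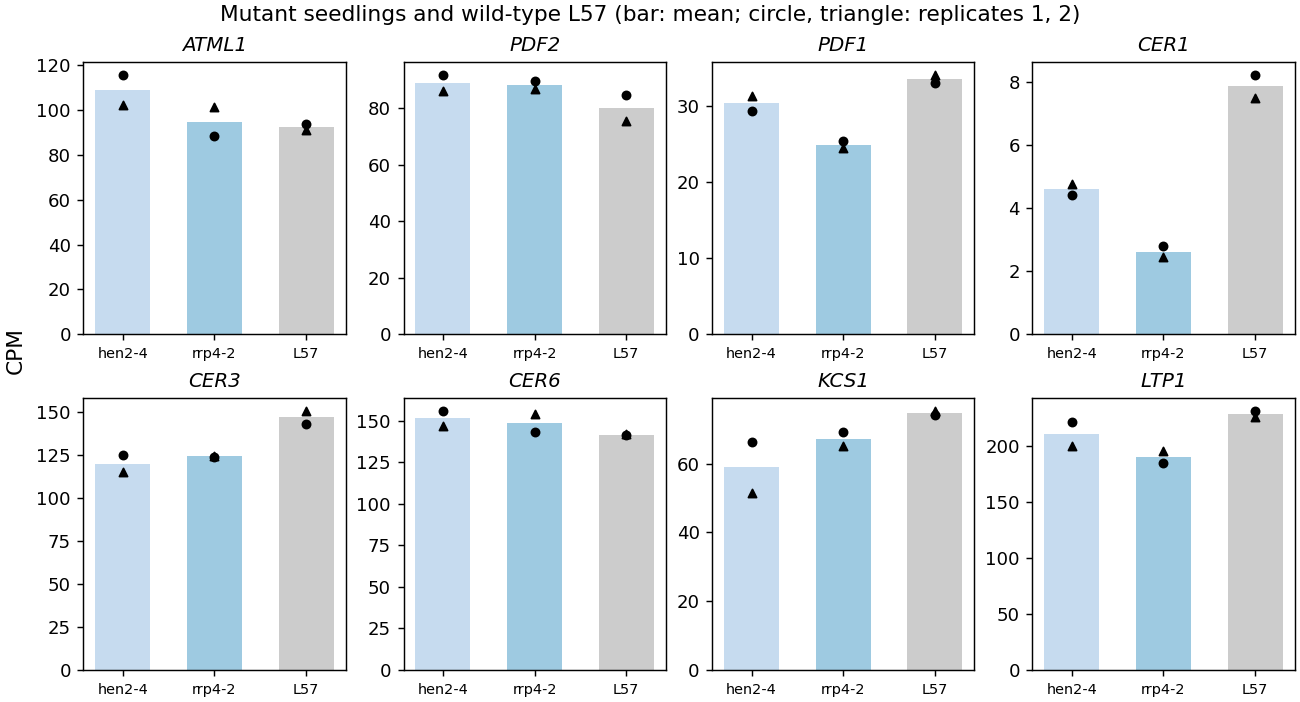
CPM of the 8 tested members in the libraries labelled hen2-4, in rrp4-2 and in L57, with bars for the mean of 2 libraries, a circle for replicate 1 and a triangle for replicate 2, and each axis starting at 0. CER1 lies at 4.42 and 4.76 CPM in hen2-4 and 2.79 and 2.44 CPM in rrp4-2, below 8.22 and 7.49 CPM in L57, and CER6 lies between 141 and 156 CPM throughout.

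In counts, 1 of 8 members was called higher in hen2-4 than in L57 where 19.7% of all genes were, and 3 were called lower where 10.6% were. In rrp4-2 0 of 8 were called higher where 18.0% of all genes were, and 2 were called lower where 8.54% were. Between rrp4-2 and hen2-4, 0 of 8 were higher where 4.96% of all genes were, and 1 was lower where 4.55% were. Higher calls made up 65.0% of all calls in hen2-4 and 67.9% in rrp4-2, but 42.6% and 39.6% with DESeq2 size factors, so the balance of directions over all genes depended on the scale. Both comparisons share the L57 libraries, and the mutant libraries were sequenced more deeply than those of L57.

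Of the 65 tested genes of the wider list, 11 were higher and 14 lower in the libraries labelled hen2-4 than in L57, where 19.7% and 10.6% of all genes were, and 7 were higher and 11 lower in rrp4-2, where 18.0% and 8.54% were. The 14 became 4 without L57 replicate 1, 8 without L57 replicate 2, 9 without hen2-4 replicate 1 and 5 without hen2-4 replicate 2. In rrp4-2 the 7 became 3 without L57 replicate 1 and 4 without L57 replicate 2 or rrp4-2 replicate 2, and the 11 became 7 without L57 replicate 1 and 6 without rrp4-2 replicate 1. HTH, an oxidoreductase of cutin synthesis, had 104 and 92.8 CPM in the libraries labelled hen2-4 and 100.3 and 100.2 CPM in rrp4-2, against 220 and 195 CPM in L57 (log2 fold changes -1.08 ± 0.09 and -1.05 ± 0.09, adjusted p = 2.97e-06 and 6.62e-06). LTP2 had 122 and 92.4 CPM in the libraries labelled hen2-4 and 106 and 95.5 CPM in rrp4-2, against 240 and 200 CPM in L57 (-1.04 ± 0.14 and -1.12 ± 0.14). PAS2, the dehydratase of the elongase, had 47.9 and 41.7 CPM in the libraries labelled hen2-4 and 44.4 and 49.3 CPM in rrp4-2, against 80.2 and 73.2 CPM in L57 (-0.78 ± 0.09 and -0.71 ± 0.09). For these 3 genes no mutant library reached an L57 library.

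KCR1, the reductase of the elongase, and LTPG1 were also lower in both, by -0.31 ± 0.08 and -0.32 ± 0.08 in hen2-4 and -0.26 ± 0.08 and -0.70 ± 0.08 in rrp4-2. EXPA7 had 8.83 and 10.4 CPM in the libraries labelled hen2-4 and 6.29 and 7.13 CPM in rrp4-2, against 18.9 and 17.2 CPM in L57, and the root hair gene COBL9, named after its values were seen, was lower in both as well. Among the genes called lower in 1 mutant and not the other were, in hen2-4, LTPG2 (-0.39 ± 0.13), HDG2 (-0.31 ± 0.11) and GSO2 (-0.63 ± 0.15), and, in rrp4-2, KCS10 (-0.38 ± 0.11). For these 4 genes the direct comparison of the mutants did not pass (adjusted p of 0.459 or more). Higher in both were DEWAX (1.04 ± 0.16 and 0.60 ± 0.15), ANL2 (0.49 ± 0.09 and 0.53 ± 0.09), HDG1 (0.35 ± 0.05 and 0.37 ± 0.05), the calpain DEK1 (0.51 ± 0.08 and 0.57 ± 0.08) and CYP86A8 (0.42 ± 0.07 and 0.22 ± 0.07). KCS9 (0.44 ± 0.08), CER9 (0.41 ± 0.07) and ACR4 (0.35 ± 0.09) were called higher in hen2-4, and TMM (0.37 ± 0.11) and ALE2 (0.21 ± 0.07) in rrp4-2. For these genes too the direct comparison of the mutants did not pass. CYP86A2 was called in opposite directions, higher in hen2-4 (0.23 ± 0.08) and lower in rrp4-2 (-0.25 ± 0.08), and the mutants differed from each other by -0.47 (adjusted p = 0.00201). The sum of mesophyll markers was 13874 to 14547 CPM in the libraries labelled hen2-4 and 10484 to 11590 CPM in rrp4-2, against 14267 to 17072 CPM in L57. That of endosperm and seed coat markers was 10.8 to 11.4 CPM in hen2-4 and 6.53 to 7.04 CPM in rrp4-2, against 19.5 to 21.2 CPM in L57, and was nearly all DELTA-VPE. DELTA-VPE had 11.2 and 10.5 CPM in hen2-4 and 6.14 and 6.60 CPM in rrp4-2, against 18.9 and 20.6 CPM in L57. MFT had 0.0731 and 0.0678 CPM in hen2-4 and 0.226 and 0.247 CPM in rrp4-2, against 0.118 and 0.0103 CPM in L57, and EPR1 had at most 0.60 CPM in any of these libraries. Whether the seedlings differed in stage or make-up was not tested.

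The members fell into patterns over the 16 libraries that can be described by the correlation of log2 CPM, a value that the 8 groups and their depths share. CER3, CER6 and KCS1 had r of 0.99 with each other and PDF1 had r of 0.97 with CER1, while PDF2 had r of 0.12 with CER6 and 0.36 with ATML1. Among 14158 genes with a group mean of at least 10 CPM, the closest to CER3 were SMT1 (r = 0.997), KCS1 (0.994) and IAA16 (0.994), and the closest to KCS1 were PSY (0.999), PFK1 (0.996) and CER3 (0.994). The closest to CER1 were COS1 (0.984), ATKDSA2 (0.981) and AT4G12870 (0.977), and the closest to PDF1 were AT1G42480 (0.996), AT2G24300 (0.994) and scpl42 (0.994). The closest to CER6 were AT3G15810, WRKY29 and AT1G72510 (0.994, 0.994 and 0.993), and to LTP1 AT3G29185, AT3G56010 and MAP70-4 (0.998, 0.996 and 0.996). ATML1 was closest to AT1G80000 (0.963), RLP4 (0.960) and AT4G14240 (0.958), and PDF2 to CNX3 (0.979), AT2G07674 (0.975) and AT2G28510 (0.975). None of the 2414 de novo transcripts overlapped any of the 9 loci on either strand, and no other annotated gene did.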

How the data were processed

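Total RNA-seq of 16 libraries was analysed. Per the methods of the study, the authors trimmed rRNA-depleted, stranded reads with HOMER 4.11.1, mapped them to TAIR10 with STAR 2.7.9a, placing each multimapped read at 1 random location, and quantified Araport11 and de novo transcripts with StringTie 2.1.4. The deposited expected counts (estimated counts per transcript, written as whole numbers) cover 61786 transcripts, and the deposited TPM, scaled by the authors to 1000000 per library, cover 46640. The authors' de novo transcripts gave positions only. The TPM are called TMM-normalized in the methods, but each column sums to 1000000.

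Counts were summed per locus (40414) and tested with edgeR 4.0.16 in R 4.3.3 (filterByExpr, TMM, quasi-likelihood F test, all 8 groups in 1 model, two-sided, Benjamini-Hochberg). DESeq2 1.42.0 served as an alternative. CPM values use the TMM-scaled totals, with 75618077 to 266418636 counts per library, and the floor of 3 counts covers counting error only. Sequences and coordinates come from RefSeq on TAIR10.1. All 2414 de novo transcripts lay within its chromosome lengths. Members and lists were chosen with earlier results of these data known. Named genes were all members, the 3 of each role that changed most in L57 against DS or in a mutant among those called with a mean of at least 10 CPM, and the 3 most correlated with each member.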

Additional observations from a re-analysis of the deposited data

Results flagged for a closer look

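CER1 differed between the mutants under the same contrast with L57. Its log2 fold change was -1.59 in rrp4-2 and -0.77 in the libraries labelled hen2-4, and the direct comparison of rrp4-2 with hen2-4 gave -0.81 ± 0.23 (edgeR quasi-likelihood test, adjusted p = 0.0475). Both rrp4-2 libraries (2.79 and 2.44 CPM) lay below both hen2-4 libraries (4.42 and 4.76 CPM). Of 10 alternatives 3 passed. The call was lost on leaving out any 1 of the 4 libraries, with log2 fold changes of -0.72 to -0.92.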

How the results depend on the processing

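Of 744 refits of single members, 672 kept their side of the threshold, 39 lost a call and 31 gained a call. The 672 include refits that changed direction where neither fit passed. CER1 in S72 against S24 was such a case, at -0.90 without S72 replicate 2 (reported 1.08). In 2 refits a change of direction came with a call, both ATML1 in L57 against L26 (0.31 with DESeq2 size factors and with the DESeq2 Wald test). The cause of each change was not tested. Counts of members called in the 6 stage comparisons stayed within 1.5 times of the reported ones. The 1 member higher in hen2-4 than in L57 became 0 with DESeq2 size factors, no filter on low counts, organellar genes and rRNA left out, only the 4 libraries compared or the DESeq2 Wald test, and 0 to 1 without each replicate. The 3 lower became 0 to 2 without each replicate. The 2 lower in rrp4-2 than in L57 became 4 with DESeq2 size factors, with organellar genes left out and with the Wald test, 5 with only the 4 libraries, and 1 without any replicate. The 1 lower in rrp4-2 than in hen2-4, CER1, became 0 without the filter and 2 with only the 4 libraries. The call on CER1 was lost without any 1 of the 4 libraries, at -0.72 to -0.92.

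Settings for the wider list were chosen after seeing the data. Its 17 lower genes in S24 against DS became 10 with organellar genes left out, the 24 in S72 against S24 became 15 with only the 4 libraries, the 8 in L6 against S72 became 5 without L6 replicate 2 (5 to 7 over replicates), and the 20 in L57 against L26 became 10 with DESeq2 size factors and 9 with the Wald test. In hen2-4 against L57 the 14 lower became 22 with only the 4 libraries, 23 with the Wald test and 4 to 9 without each replicate. In rrp4-2 against L57 the 7 higher became 4 with DESeq2 size factors, no filter, organellar genes left out or the Wald test and 3 to 5 without each replicate, and the 11 lower became 24 with DESeq2 size factors, 23 with only the 4 libraries, 26 with the Wald test and 6 to 8 without each replicate. Between rrp4-2 and hen2-4 the 1 higher became 2 with only the 4 libraries, and the 2 lower became 9 with only the 4 libraries, 11 with the Wald test and 1 to 4 without each replicate.

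Scaling moved the share of higher calls over all genes, with DESeq2 size factors and with organellar genes left out, to 45.9% and 66.7% in S24 against DS (reported 53.8%), 43.7% and 34.2% in S72 against S24 (48.5%), 58.8% and 50.7% in L57 against L26 (45.6%), 42.6% and 51.2% in hen2-4 against L57 (65.0%) and 39.6% and 48.8% in rrp4-2 against L57 (67.9%). Over all genes the log2 fold change had a median of 0.22 in S24 against DS, -0.17 in S72 against S24 and -0.11 in L57 against L26, and 0.44, -0.38 and 0 with organellar genes left out. Same-numbered replicates of the groups compared deviated together little (correlations -0.04 to 0.09). With 2 libraries a group, this cannot tell whether the numbers pair the libraries. With the replicate block, the 1 member lower in rrp4-2 than in hen2-4 became 0, those lower in hen2-4 than in L57 became 2 and those lower in rrp4-2 than in L57 became 3. With 2 libraries a group, small differences such as those of CER3 and KCS1 in the mutants rest on single libraries, and CER1 in seed rests on 6 to 44 counts.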
